A study of Drosophila melanogaster with 2 samples.

Results

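Regions enriched in a Deformed chromatin immunoprecipitation (ChIP-seq) were examined across the bithorax complex, the chromosomal block that holds the trunk Hox genes Ubx, abd-A and Abd-B. The regions were chosen by position: every region on chromosome arm 3R whose centre lay from 12460000 to 12820000, a window of 360 kb in the coordinates of the deposited region lists. The window held 17 of the 3898 regions of the larger list, called at a p-value cutoff of 0.001, and 4 of the 1079 regions of the stricter list, called at 0.0001. Since 3 of the 4 stricter regions lay at places that the larger list also held, the window had 18 distinct places. The build of the coordinates is not given in the sources used here. The window was set on the understanding that the coordinates are those of Release 5, and no annotation of that release was used, so no region is assigned to a gene and no sequence is shown.

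The data compared 1 library immunoprecipitated with a guinea pig antibody against Deformed with 1 library from a mock precipitation with guinea pig IgG. Both came from wild-type Oregon R Drosophila melanogaster embryos of 5 to 9.5 hours, which covers stages 9 to 12. Whole embryos were used, so head and trunk cells entered each library together. After duplicate filtering the Deformed library had 15547495 of its 20112283 tags and the control 12694075 of its 13016695. The Deformed library thus lost more tags to this filter, although 4 tags were allowed at a position against 3 in the control. With 1 library a group there was no replicate error and no test between groups, and both lists come from the same 2 libraries, so a region in both lists was not measured again.

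Hox genes encode homeodomain transcription factors that give segments their identity along the body axis. Deformed acts in the mandibular and maxillary segments of the head. The bithorax genes act further back: Ubx in the posterior thorax and first abdominal segment, abd-A in the abdomen, and Abd-B in the posterior abdomen and genitalia. Their long cis-regulatory domains respond to early segmentation factors, to Polycomb and Trithorax proteins and to other Hox proteins, and Hox proteins of posterior segments can repress or override more anterior ones. The study asked which regulatory regions Deformed occupies, and the bithorax complex holds Hox genes that act outside the head segments in which Deformed acts.

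In the gene table at hand, which belongs to Release 6, the 3 Hox genes lie in the order Ubx, abd-A, Abd-B along increasing coordinates. From the start of Ubx to the end of Abd-B the table spans 315.6 kb, which is shorter than the 360 kb window. It lists 17 genes there, of which 6 code for proteins, 8 are long noncoding RNAs, 2 are miRNAs and 1 is an antisense RNA. Ubx (gene ID 42034) is 77.8 kb long, abd-A (42037) 22.8 kb and Abd-B (47763) 45.0 kb. Between Ubx and abd-A lie lncRNA:bxd, a transcript of the Ubx regulatory domain, and Glut3, annotated by its symbol as a glucose transporter gene. Between abd-A and Abd-B lie lncRNA:iab8, lncRNA:iab4 and the miRNA genes mir-iab-4 and mir-iab-8, which come from opposite strands of 1 place and target bithorax Hox transcripts. The table served for names, order and size only.

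The 4 stricter regions were short and had few tags. The region at 3R 12765517 to 12765690 ranked first among them. It held 23 tags (95% exact Poisson interval 14.6 to 34.5), with a fold of 4.23 over local background at its summit, a score of 45.74 and rank 666 of 1079. The score is the negative log10 of the authors' p-value, multiplied by 10, and intervals on tags cover counting error only.

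The other 3 stricter regions lay in the low-coordinate 120 kb of the window. The region at 12503609 to 12503811 also held 23 tags, with a fold of 4.99, a score of 40.72 and rank 1022. The region at 12539950 to 12540111 held 19 tags (11.4 to 29.7), with a fold of 4.04, a score of 41.75 and rank 929. The region at 12485801 to 12485958 held 19 tags, with a fold of 4.70, a score of 40.35 and rank 1064, close to the end of the list. The tag intervals of all 4 overlap, and differences between their tag counts were not tested.

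None of the 4 stricter or 17 larger-list regions had a false discovery rate (FDR) under 100%. As the caller, MACS 1.4, defines it, an FDR of 100% means that at the same score or better at least as many regions were found with the 2 libraries exchanged. Over all arms 1.85% of the stricter list and 0.539% of the larger list had an FDR under 100%. On 3R outside its first 2 Mb, 0% of the 175 stricter and 0% of the 866 larger-list regions did, so the bithorax regions shared this with every region of the arm compared here.

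In the larger list 2 of the 17 regions reached a score of 40, the value of the stricter cutoff, against 28.1% of the 866 regions of the arm outside its first 2 Mb. The highest, at 12765483 to 12765855, held 41 tags (29.4 to 55.6) with a fold of 4.23, a score of 48.88 and rank 635 of 3898. It contains the highest-scoring stricter region and has the same summit, at 12765595. The other, at 12503609 to 12503811, had the same start, end, tags and score in both lists and rank 1232 in the larger.

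The next 3 by score lay in the high-coordinate 120 kb of the window. The region at 12773615 to 12773775 had 18 tags, a fold of 4.67, a score of 39.68 and rank 1361. A score of 35.49 and rank 2119 belonged to 12707333 to 12707550, with 24 tags and a fold of 3.87. A score of 34.99 and rank 2229 belonged to 12728463 to 12728619, with 17 tags and a fold of 4.54. From rank 1361 on, all members of the larger list were below a score of 40.

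The remaining 12 scored between 30.02 and 33.80. In the high-coordinate 120 kb, 12763284 to 12763579 held 30 tags (rank 2548, fold 3.55), the lowest fold of the 17. Nearby, 12772149 to 12772330 held 18 tags (rank 2693, fold 5.14) and that at 12767672 to 12767853 held 20 tags (rank 3346, fold 4.27). These 3 lie on either side of the highest-scoring region and form a group with it and the region at 12773615, described further on. Also in this part, 12714293 to 12714622 held 33 tags (22.7 to 46.3; rank 2833, fold 4.19) and 12712820 to 12712981 held 16 tags (9.1 to 26.0; rank 3651, fold 3.74). The 33 tags were the second highest count of the window, over a region of 330 bases.

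The middle 120 kb held 3 regions, all in the larger list only. The one at 12684023 to 12684176 held 16 tags (rank 2777, fold 5.14), that at 12682219 to 12682377 also 16 tags (rank 3477, fold 3.70), and that at 12631250 to 12631518 held 28 tags (rank 3728, fold 3.75). Equal tag counts thus went with folds of 5.14 and 3.70 at neighbouring places.

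In the low-coordinate 120 kb, 12505119 to 12505346 held 21 tags (rank 2828, fold 5.14) and lay 1.31 kb from the shared region at 12503609. The region at 12485753 to 12485967 held 21 tags (rank 3373, fold 4.70) and has the summit of the stricter region there, at 12485850. Its score was 31.20 in the larger list against 40.35 for the shorter stricter call, so 1 summit had different scores in the 2 lists. The last 2 were 12495830 to 12496002 with 17 tags (rank 3786, fold 4.09) and 12572587 to 12572750 with 16 tags (rank 3893, fold 3.74). The latter, with a score of 30.02, ranked last of the 866 regions of the arm outside its first 2 Mb.

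**Figure D1:**
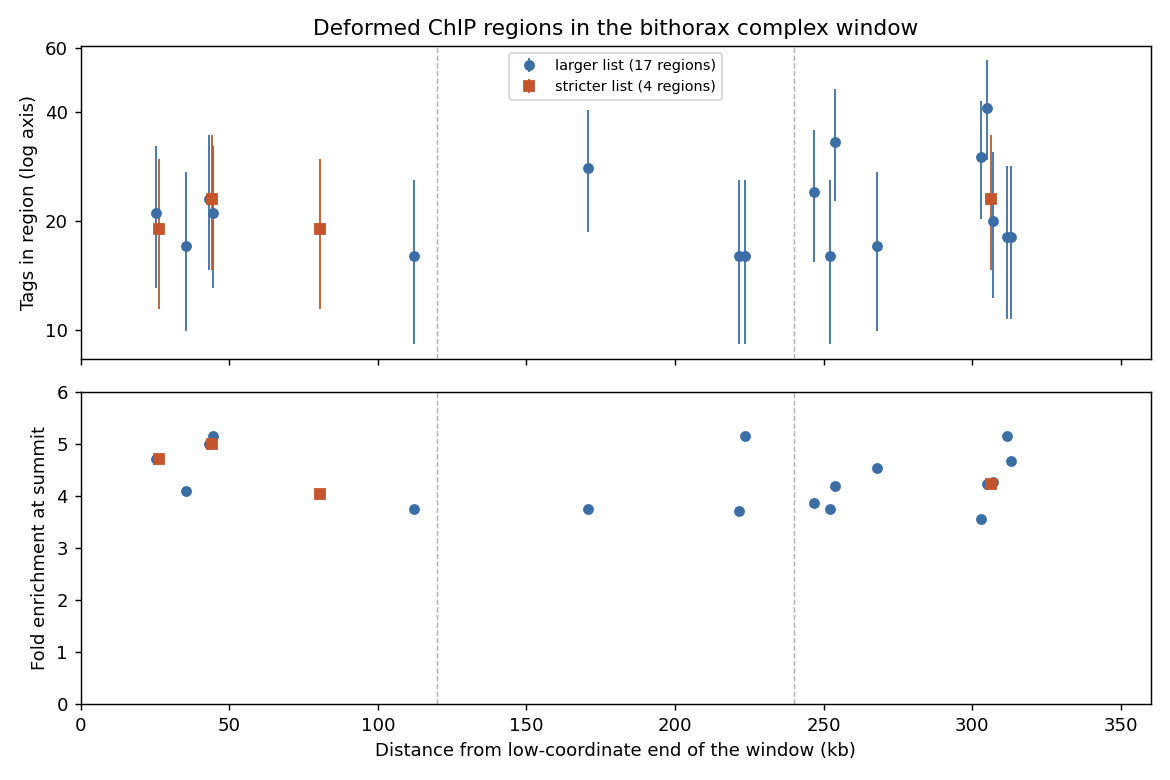
Tags (upper panel, log axis, with 95% exact Poisson intervals) and fold enrichment at the summit (lower panel) of each region of the bithorax window, against the distance of its centre from the low-coordinate end of the window in kb. Circles are the 17 regions of the larger list and squares the 4 of the stricter list, set slightly apart sideways; dashed lines divide the window into 3 parts of 120 kb. Tags ran from 16 to 41 and folds from 3.55 to 5.14, and the last 46.2 kb of the window held no region.

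Within the window the 2 lists met at 3 places. Of the 17 larger-list regions, 3 (17.6%) overlapped a stricter region by at least 1 base, against 18.7% on the arm outside its first 2 Mb. Of the 4 stricter regions, 3 (75.0%) overlapped a larger-list region, against 92.6% on the arm. The exception was 12539950 to 12540111, which was called at the stricter cutoff with a score of 41.75 and had no counterpart at the looser one. The 3 shared regions kept their summits, and 1 of them also kept both ends.

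The bithorax window held somewhat more regions than the rest of the arm at its length, by a margin within counting error. Random placement over 3R outside its first 2 Mb, of which the window is 1.39%, gives 12.06 larger-list and 2.44 stricter regions. The density of the rest of that stretch gives 11.99 and 2.41. The observed 17 are 1.42 times the rest-of-arm number (95% exact Poisson interval 0.83 to 2.27), and the observed 4 are 1.66 times (0.45 to 4.24). As a share of the arm's regions these are 1.96% (95% exact binomial interval 1.15 to 3.12) and 2.29% (0.63 to 5.75). All these intervals contain the value that the window's length gives, and they treat regions as independent.

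The larger-list ratio depended on the distance at which neighbours were merged. With regions less than 1 kb apart merged, the window kept 17 separate regions and the ratio was 1.48. With regions less than 10 kb apart merged, the 17 formed 7 groups against 7.54 expected, a ratio of 0.93. No interval was computed for this ratio, and 7 lies close to 7.54, so no change of direction is read from it. The 4 stricter regions stayed 4 separate regions under that merging, at a ratio of 1.84.

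Other stretches of the arm gave a second view of the same counts. When 3R outside its first 2 Mb was divided into 360 kb windows aligned to the bithorax window, the other 70 held 1 to 29 larger-list regions with a median of 11. Of these, 14 held more than 17, 1 held 17 and 55 held fewer. In the stricter list they held 0 to 8 with a median of 2, and 9 held more than 4, 15 held 4 and 46 held fewer. The bithorax window was thus in the upper part of both ranges without standing apart from them.

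**Figure D2:**
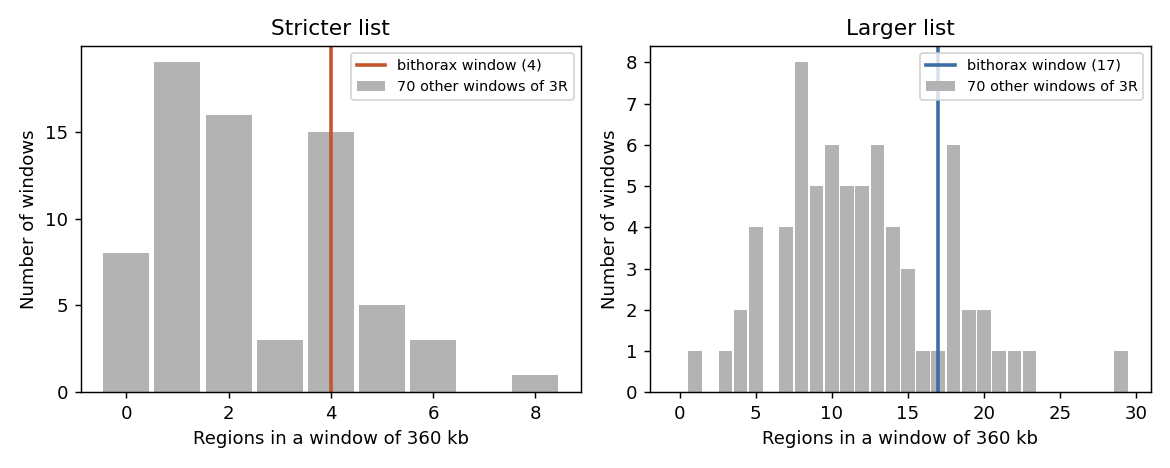
Number of regions in each of the 70 other 360 kb windows of 3R outside its first 2 Mb (grey bars, horizontal axis regions per window, vertical axis number of windows), for the stricter list (left) and the larger list (right). The coloured line marks the bithorax window, with 4 and 17 regions; 9 and 14 of the other windows held more.

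The bithorax regions had lower scores than most of the arm. In the larger list their median score was 32.86 (quartiles 31.00 and 34.99), against 35.66 (32.32 and 40.96) for the 849 other regions of 3R outside its first 2 Mb, and 14 of 17 lay below the median of the rest. In the stricter list all 4 lay below the other regions' median score of 46.02 and below their median fold of 5.03. On the rest of the arm 82 larger-list and 89 stricter regions scored above the highest bithorax region of their list. Regions of 1 library are not replicates, so these differences were not tested.

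Tags, lengths and folds of the bithorax regions fell inside the ranges of the arm. The larger-list medians were 20 tags against 22 elsewhere on the arm, 182 against 202 bases in length and a fold of 4.23 against 4.35. In the stricter list they were 21 against 23 tags, 168 against 190 bases and a fold of 4.46 against 5.03. A fold of at least 5 was reached by 3 of the 17, each at 5.14, against 22.1% of the arm's regions. The highest fold on the rest of the arm was 7 and the highest tag count 118, against 5.14 and 41 within the window.

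Folds of the larger list fell often on a few values, and this bears on the 3 bithorax regions at 5.14. The 6 most frequent folds of the list, 3.74, 4.20, 4.67, 5.14, 5.60 and 6.07, were carried by 1078 of 3898 regions (27.7%), and 5.14 alone by 184. Among the bithorax regions 6 of 17 (35.3%) had one of these folds, against 21.9% of the other regions of the arm. The equal folds of 5.14 at 12505119, 12684023 and 12772149 are therefore a common value of the list.

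Over their whole length most bithorax regions held fewer tags per base than the whole library spread over the effective genome. The filtered Deformed library gives 13.0 tags per 100 bases over the 120 Mb effective genome. All its filtered tags enter that value, wherever they mapped, while 120 Mb is the caller's setting. The value is therefore a rough scale and no measured background, and no depletion is read from it. The 17 larger-list regions held 9.2 to 11.3 tags per 100 bases, all below that value, as were 825 of the 849 other regions of the arm. Of the 4 stricter regions 1, at 12765517, was above it at 13.2, and the other 3 held 11.3 to 12.0. The deposited fold compares the summit with a local background and is a different measure.

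**Figure D3:**
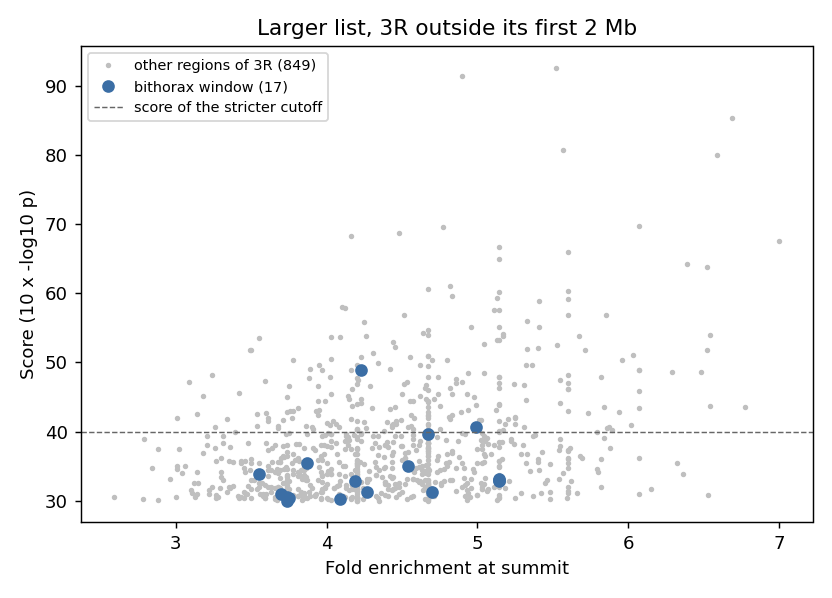
Score (vertical axis, the negative log10 of p multiplied by 10) against fold enrichment at the summit (horizontal axis) for larger-list regions of 3R outside its first 2 Mb, with the 849 other regions in grey and the 17 bithorax regions in blue. Of the bithorax regions 2 lie above the dashed line at a score of 40, and the vertical lines of grey points are folds that many regions share.

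Within the window the regions were unevenly placed. The larger list had 5 in the low-coordinate 120 kb, 3 in the middle and 9 in the high-coordinate 120 kb, where the rest of the arm gives 4.0 for each. The exact 95% Poisson interval of the 9, 4.12 to 17.08, leaves out 4.0 by a narrow margin, while those of the 5 (1.62 to 11.67) and the 3 (0.62 to 8.77) contain it. All 3 intervals overlap one another. They treat regions as independent, although 5 of the 9 lay within 10.5 kb, and the 3 parts were chosen with the data known. The stricter list had 3, 0 and 1, where 0.8 is expected in each. The division into 3 parts was made without gene positions and does not separate the domains of Ubx, abd-A and Abd-B.

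Between larger-list regions inside the window, the 3 longest gaps followed one another, separated by the single regions at 12572587 and 12631250. The longest, 67.2 kb, ran from 12505346 to 12572587, and it was the gap that held the stricter-only region at 12539950. The others, of 58.5 and 50.7 kb, ran from 12572750 to 12631250 and from 12631518 to 12682219. Gaps inside the window were under 2.5 kb in 6 of 16 cases (37.5%), against 13.8% of the 865 gaps of the arm outside its first 2 Mb. They were over 40 kb in 3 of 16 (18.8%) against 24.2%. The median gap was 6.44 kb in the window and 16.77 kb on the arm. The 16 leave out the gaps across the window's edges, from 12429033 to 12485753 and from 12773775 to 12828706, which the arm's gaps include. Both are over 40 kb, so these comparisons hold for inner gaps only.

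The densest group had 5 regions in 10.5 kb, from 12763284 to 12773775. It held 127 tags in all, from 18 to 41 per region, at folds from 3.55 to 5.14, and its region at 12765483 led the window in both score and tags. In the stricter list 1 region, at 12765517, lay in the group. As many as 5 regions within that length were found from 3 of the 866 starting regions of the arm, or 0.346%: this one and those starting at 3172896 and 13317873. No stretch of that length on the arm outside its first 2 Mb held more than 5. The length was taken from the group itself, so this is a description of its rank and no test.

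The edges of the window cut no cluster of members. The nearest larger-list region below it, at 12428869 to 12429033 with 19 tags and a score of 34.01, lay 31.0 kb outside. The nearest above, at 12828706 to 12828938, was in both lists, with 29 tags, a fold of 4.99 and a score of 43.82, and lay 8.8 kb outside. The outermost members were the region at 12485753, with 21 tags and a score of 31.20, and that at 12773615, with 18 tags and a score of 39.68, which ended 46.2 kb before the high-coordinate edge.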

How the data were processed

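Alignment used Bowtie, per the submitters' processing notes, and the region caller was MACS 1.4.0beta, Deformed against control, per the file headers, which also give a fragment length of 50 bases, an effective genome of 120 Mb and at most 4 (Deformed) and 3 (control) tags kept at a position. Neither the Bowtie version nor the build is given in the sources used here. The deposited tags are counts per region, the deposited score is 10 times −log10 of the p-value, the deposited fold enrichment is a ratio and the deposited FDR is a percent. Control tags per region were not used here.

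The window, the members and all summaries were chosen with earlier results of these data known. Regions were placed by centre and ranked by score, then fold, then tags. Expected counts scale the number of regions on 3R outside its first 2 Mb, up to the last region end of either list (27854849), by length. On Release 6, 564 of the 4226 genes of 3R start past that end, so no Release 6 position was used. Every stricter and larger-list region of the window is named, beyond the rule for named regions, which asked for the stricter ones, the shared ones and the 5 highest-scoring. A comparison of homeodomains set out in the design was not run. Intervals are exact and cover counting error only. The tools were scipy 1.17.1, numpy 2.4.6, matplotlib 3.10.9 and pandas 2.3.3 under Python 3.11.15.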

Additional observations from a re-analysis of the deposited data

How the results depend on the processing

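No paired analysis was possible because each group holds 1 library. The count of 4 stricter regions became 17 in the larger list and 0 when the stricter list was reduced to its 50% of highest score. It was 5 with the window 20 kb wider at each end and 4 when the window was 20 kb narrower, when regions were placed by summit and when they were merged under 1 or 10 kb. The stricter ratio to the rest of the arm ran from 1.64 to 1.87, and the larger-list ratio from 1.35 to 1.60 except with merging under 10 kb, where it was 0.93. Taking random placement with the window included was chosen after seeing the data and gave 1.64 and 1.41. The median length of 168 bases became 182 in the larger list and 288 for its 2 regions with a score of at least 40, whose median tag count was 32 against 21. With 50% of both lengths required, 2 regions were shared in place of 3. Depth limits the tag counts, whose intervals overlap for most pairs of regions, and a window of this length holds too few regions to tell a ratio of 1.42 from 1.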
